A study of Mus musculus with 6 samples.

Results

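Acaa1a, Acaa1b, Acot1 and Scp2 encode proteins that handle fatty acyl-CoA, the activated form in which fatty acids are broken down. In mouse livers exposed to GW4064, a synthetic agonist of the bile acid receptor FXR (farnesoid X receptor), the probe sets of these genes lay 1.58- to 3.00-fold below vehicle. The 3 treated livers did not overlap the 3 vehicle livers, as was so, in the same direction, for 7.16% of all tested probe sets. Among the other lower probe sets that the authors had listed as changed, 43 of 46 did not overlap either. The members are all probe sets whose gene symbol entry in the authors' deposited table contains 1 of these 4 symbols, alone or beside others. This gave 4 probe sets out of the 22626 tested on the arrays, and out of the 110 probe sets that the authors listed. Per its header, that listing took probe sets with a change of 1.5-fold or more and an unadjusted p no higher than 0.05 in an unpaired test. It was made from the same 6 mice, so the members were selected on the very difference between treated and vehicle livers. On the deposited log2 values, 10 of the 50 listed probe sets that were lower differed by less than 1.5-fold, the smallest by 1.26-fold, so the listing cannot be rebuilt exactly from them. The differences between treated and vehicle livers are therefore given as a description, with no test.

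Livers came from wild type adults of the C57BL/6J strain. GW4064 was given to 3 mice at 100 mg per kg, and the other 3 received vehicle. Dosing took place at 8 am and 6 pm and once more at 8 am on the second day, 3 doses in all, with the livers collected 2 hours later. Per the study's methods the mice had been fasted from the second dose onwards, so both groups were fasted, a state in which the liver draws on fatty acids. Total RNA of each liver was hybridized to 1 Affymetrix array, and values are normalized log2 expression levels. In whole liver RNA, fewer cells of a type and less RNA per cell cannot be told apart.

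Fatty acids are coupled to coenzyme A before they are used. Peroxisomes shorten very long chain and branched acyl-CoA, and the side chain of bile acid precursors, by beta-oxidation, in which a thiolase performs the last step of each round. The shortened products pass to mitochondria for further oxidation. In mouse liver, fasting and the nuclear receptor PPARA (peroxisome proliferator-activated receptor alpha) are known to raise many genes of these pathways. Acaa1a and Acaa1b encode a pair of closely related peroxisomal thiolases that cleave straight-chain 3-ketoacyl-CoA. Acot1 encodes a cytosolic thioesterase that hydrolyses long chain acyl-CoA to free fatty acid and coenzyme A. Scp2 gives rise to sterol carrier protein 2, a peroxisomal lipid carrier, and to a longer product with thiolase activity on branched chains, which acts in the side-chain shortening of bile acid precursors.

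Only 1 of the 4 probe sets stood for a single gene in the authors' table. Probe set 1419974_at carried the symbol Scp2 alone, on chromosome 4 (band C7). Probe sets 1416946_a_at and 1416947_s_at both carried Acaa1a together with Acaa1b, on chromosome 9 (bands F3 and F4), so neither can assign a signal to 1 of these paralogs. The suffix _s_at of the latter marks probes that can detect transcripts of several genes by design. Probe set 1449065_at carried Acot1 together with LOC100044830, described there as similar to an acyl-CoA thioesterase, on chromosome 12 (band D1). LOC100044830 had no entry among the RefSeq genes used here. In the RefSeq gene order of GRCm38.p6, Acot1 stood in a run of 6 neighbouring thioesterase genes (Acot2, Acot1, Acot4, Acot3, Acot5 and Acot6). Acaa1b and Acaa1a were separated by 4 protein-coding genes. The deposited files hold no probe sequences, so it was not tested whether the Acot1 probe set also detects its neighbours.

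Although transcripts of Acaa1a and Acaa1b share their probe sets, the genes have separate promoters. The 250 bases before the RefSeq start site of each of the 4 genes are shown to let the paralogs and the other members be compared, 5′ to 3′ on the gene's own strand, with RefSeq coordinates of GRCm38.p6. Capitals mark matches on either strand to a nuclear receptor half-site in any of its common spellings, which were AGGTCA and also GGGTCA, besides AGTTCA and finally GGTTCA, or to the CCAAT box (CCAAT). These motifs were chosen after the promoters and the array values had been seen.
Acaa1a, chr9:119341044-119341293, plus strand: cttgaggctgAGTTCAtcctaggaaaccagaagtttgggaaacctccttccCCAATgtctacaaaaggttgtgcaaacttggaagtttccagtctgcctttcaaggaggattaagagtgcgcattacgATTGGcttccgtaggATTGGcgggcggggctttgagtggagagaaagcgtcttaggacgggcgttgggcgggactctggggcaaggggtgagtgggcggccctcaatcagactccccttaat
Acaa1b, chr9:119157094-119157343, minus strand: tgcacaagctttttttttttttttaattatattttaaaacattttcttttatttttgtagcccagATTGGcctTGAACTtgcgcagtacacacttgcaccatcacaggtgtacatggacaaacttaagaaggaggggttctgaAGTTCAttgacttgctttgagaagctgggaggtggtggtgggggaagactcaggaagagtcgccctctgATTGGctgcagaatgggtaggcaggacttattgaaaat
Acot1, chr12:84009252-84009501, plus strand: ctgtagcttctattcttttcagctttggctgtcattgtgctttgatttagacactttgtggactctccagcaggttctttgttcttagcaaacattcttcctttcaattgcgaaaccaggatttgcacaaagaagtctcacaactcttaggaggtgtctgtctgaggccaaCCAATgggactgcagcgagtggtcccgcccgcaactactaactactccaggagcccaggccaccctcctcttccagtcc
Scp2, chr4:108118548-108118797, minus strand: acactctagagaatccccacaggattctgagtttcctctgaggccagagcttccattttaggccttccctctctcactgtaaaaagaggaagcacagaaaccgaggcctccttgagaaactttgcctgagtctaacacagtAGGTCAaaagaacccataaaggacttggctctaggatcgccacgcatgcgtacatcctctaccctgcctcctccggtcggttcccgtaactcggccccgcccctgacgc

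The Acaa1a and Acaa1b sequences were identical at 48.2% of the columns of a global alignment, where the other 5 pairs ranged from 41.6% to 47.9%. Over this window the thiolase paralogs were thus hardly more alike than unrelated members. They also differed in base composition. GC content was 53.6% for Acaa1a and 41.6% for Acaa1b, and the sequences held 10 and 2 CpG dinucleotides. Acot1 had 48.8% GC and 4 CpG, and Scp2 had 53.6% and 10, beside medians of 52.4% and 6.0 over 32851 RefSeq promoters of the same length.

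A nuclear receptor half-site matched in 3 of the 4 promoters, beside 38.6% of all promoters. It lay 240 bases upstream of the start in Acaa1a, 177 and 107 bases upstream in Acaa1b and 109 bases upstream in Scp2. The Scp2 match was the 1 with the letters AGGTCA. The CCAAT box matched in Acaa1a, Acaa1b and Acot1, beside 33.8% of all promoters. The GC box (GGGCGG, not capitalized above) matched in Acaa1a, Acot1 and Scp2, beside 32.7%. Direct repeats of the half-site with 1 spacer base (AGGTCANAGGTCA), the arrangement that PPARA binds, matched in 0 of 4 promoters and 0.0335% of all. Inverted repeats with 1 spacer base (AGGTCANTGACCT), which FXR binds, matched in 0 of 4 and 0.00609%. The TATA box (TATAAA) matched in 0 of 4 and 12.4%. All motifs were searched on both strands and their matches in these 4 promoters did not overlap. A match is only a description of letters, and the lack of one covers only this window and this exact spelling.

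**Figure D1:**
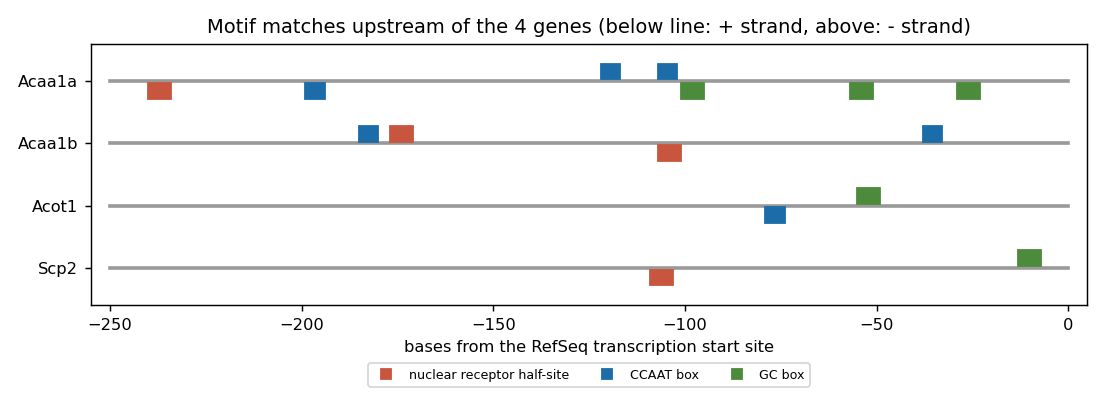
Positions of motif matches in the 250 bases before the RefSeq start site (x axis, bases from the start) of Acaa1a, Acaa1b, Acot1 and Scp2 (rows), with blocks below the line for the plus and above it for the minus strand of the gene. Acaa1a holds 1 half-site, 3 CCAAT boxes and 3 GC boxes, whereas Scp2 holds 1 half-site and 1 GC box.

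The thiolase genes were described first. On probe set 1416946_a_at, the level of Acaa1a or Acaa1b was 11.53, 11.83 and 11.34 in vehicle replicates 1, 2 and 3, and 9.63, 10.38 and 11.01 in GW4064 replicates 1, 2 and 3. The highest treated liver thus stayed 0.33 below the lowest vehicle liver. Group means were 11.57 ± 0.25 and 10.34 ± 0.69 (SD, n = 3 each), a difference of -1.23 with a standard error (SE) of 0.31 from limma, or 2.34-fold lower. On probe set 1416947_s_at the vehicle livers were at 12.39, 12.62 and 12.11 and the treated ones at 10.64, 11.32 and 11.78. Here too the groups were 0.33 apart at their nearest livers. The means were 12.38 ± 0.26 and 11.25 ± 0.57, which is a log2 difference of -1.13 (SE 0.26), 2.18-fold lower.

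Both thiolase probe sets ranked the 6 livers in the same way. Their levels correlated at r = 0.998 over the 6 arrays, and at 0.994 after each group's mean had been removed, as a description of 2 probe sets that share their targets and arrays. The log2 gap between them, 1416946_a_at minus 1416947_s_at, was -0.86, -0.79 and -0.78 in vehicle livers and -1.01, -0.95 and -0.77 in GW4064 livers. The groups overlapped in this gap, which averaged -0.81 ± 0.04 and -0.91 ± 0.12. Because they share their targets, the 2 probe sets give no separate evidence for Acaa1a and for Acaa1b.

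Acot1, the thioesterase gene, had the largest difference of the members. Its probe set read 6.82, 8.00 and 6.96 for the vehicle mice and 5.13, 5.48 and 6.41 for the treated ones. Vehicle replicate 2 stood 1.04 above the next vehicle liver, and the groups were 0.41 apart at their nearest livers. Means were 7.26 ± 0.65 and 5.68 ± 0.66, which is a log2 difference of -1.59 (SE 0.38), 3.00-fold lower. In treated livers the mean lay below 5.88, the median of the mean levels of all tested probe sets. All values hold for Acot1 together with LOC100044830, as the symbols cannot be parted.

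Scp2, the gene of the sterol carrier protein, had the smallest difference. Vehicle livers were at 8.86, 9.62 and 9.17, and treated livers at 8.36, 8.62 and 8.71. Only 0.15 separated vehicle replicate 1 from GW4064 replicate 3. The means were 9.22 ± 0.38 and 8.56 ± 0.18, which is a log2 difference of -0.66 (SE 0.19), 1.58-fold lower. This was the member nearest to 1.5-fold. Values outside the listing cannot be given for these genes, because their further probe sets, if any, are not paired with a gene here.

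**Figure D2:**
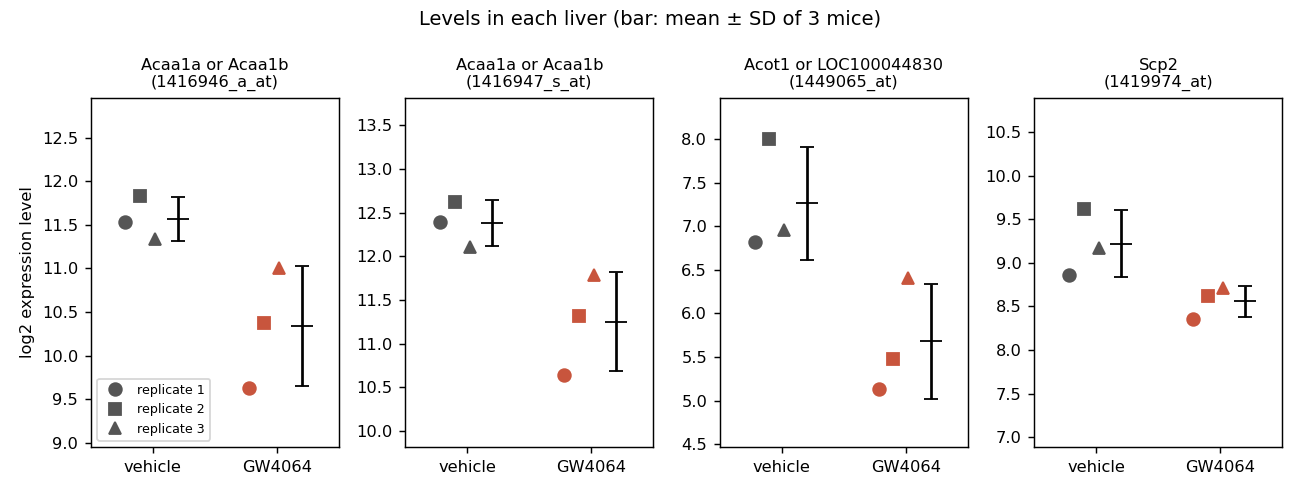
Log2 expression level (y axis, each panel spanning 4 units) of the 4 probe sets in 3 vehicle and 3 GW4064 livers, with 1 symbol per replicate and bars for the mean ± SD. No GW4064 liver reaches the lowest vehicle liver in any panel, and Scp2 has the narrowest gap, 0.15. The same lack of overlap holds for 7.16% of all tested probe sets.

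These differences were set beside those of the whole array. By limma, 0 of 22626 probe sets, or 0%, had an adjusted p under 0.05, against 1985 at an unadjusted p under 0.05, and the methods' t-test gave 0 and 1427. GW4064 livers were lower by at least 1.5-fold, at an unadjusted p under 0.05, for 140 probe sets or 0.619%. By the methods' t-test there were 38, and by limma 68 without GW4064 replicate 1 and 326 without GW4064 replicate 3. All 4 members were among the 140, from which nothing is read, since they were chosen on this contrast. By the methods' t-test 3 of the 4 met both criteria, and Scp2 did not. All 3 GW4064 livers lay below all 3 vehicle livers for 1620 probe sets or 7.16%, and for 4 of 4 members. The same held for 43 of the other 46 listed probe sets that were lower. Ordered from the largest fall, the members stood at places 10 (Acot1), 25 and 38 (the thiolase probe sets) and 156 (Scp2) of 22626. Their median difference was -1.18, beside -0.71 for the other 46 listed probe sets that were lower and -0.003 over all tested. The plot of differences over all probe sets shows where each member lies.

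**Figure D3:**
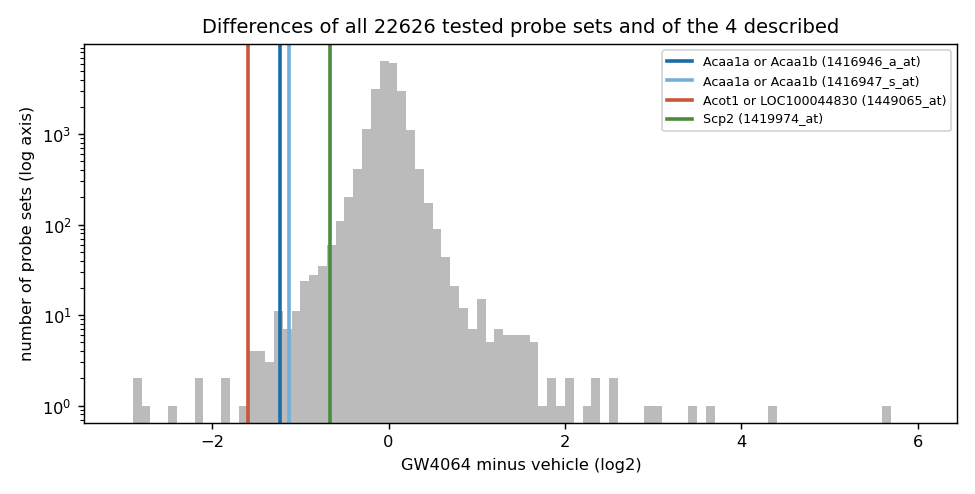
Histogram of the differences GW4064 minus vehicle (x axis, log2) of all 22626 tested probe sets, with the number of probe sets on a log axis and a coloured line for each member. Acot1 at -1.59 lies far out in the lower tail, and Scp2 at -0.66 lies nearer to the main body.

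The treated livers differed from each other in how low these genes were. In GW4064 replicate 1, 26.1% and 30.1% of the vehicle level was left on the thiolase probe sets, where the vehicle level is the geometric mean of 3 livers. Acot1 was at 22.9% and Scp2 at 55.1% in the same liver. In replicate 2 the thiolase probe sets were at 43.8% and 48.2%, Acot1 at 29.1% and Scp2 at 65.9%. In replicate 3 they were at 68.0% and 66.3%, Acot1 at 55.4% and Scp2 at 70.4%. All 4 members were lowest in replicate 1 and highest in replicate 3. This pattern among treated livers was common, since 28 of the other 46 listed probe sets that were lower (60.9%), and 19.6% of all tested, had it as well. As a whole profile, GW4064 replicate 1 was also the array least like vehicle, with a mean correlation of 0.9868 with the vehicle arrays, against 0.9927 and 0.995 for replicates 2 and 3. Each vehicle array correlated with the other vehicle arrays at 0.9946 to 0.9948 on average, so GW4064 replicate 3 was as like them as they were to each other. The part of GW4064 replicate 1 in the member values was not tested beyond leaving it out.

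The vehicle livers varied in these genes too. Which of them was highest was no criterion of the listing, but their levels entered it through the group difference. Their order is therefore not free of the selection. Vehicle replicate 2 was the highest vehicle liver for all 4 members. It stood at 120.3% and 118.7% of the vehicle mean for the thiolase probe sets, 167% for Acot1 and 132% for Scp2. The same liver was highest for 11 of the other 46 listed probe sets that were lower (23.9%) and for 34.4% of all tested. No test is given for this, as the 4 probe sets were measured in the same mice and both thiolase probe sets share their targets. The SD among vehicle livers was 0.65 for Acot1, larger than that of 99.6% of all tested probe sets, 0.38 for Scp2 (larger than 97.9%), and 0.25 and 0.26 for the thiolase probe sets (larger than 91.5% and 92.0%). The median was 0.111 over all tested probe sets, but 0.215 over the other 46 listed probe sets that were lower. Among treated livers the SD was 0.69 and 0.57 for the thiolase probe sets and 0.66 for Acot1, each larger than that of at least 98.6% of probe sets. For Scp2 it was 0.18, larger than 76.9%. The median SD among treated livers was 0.114 over all tested probe sets and 0.299 over those 46, so a wide spread was not particular to the members.

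**Figure D4:**
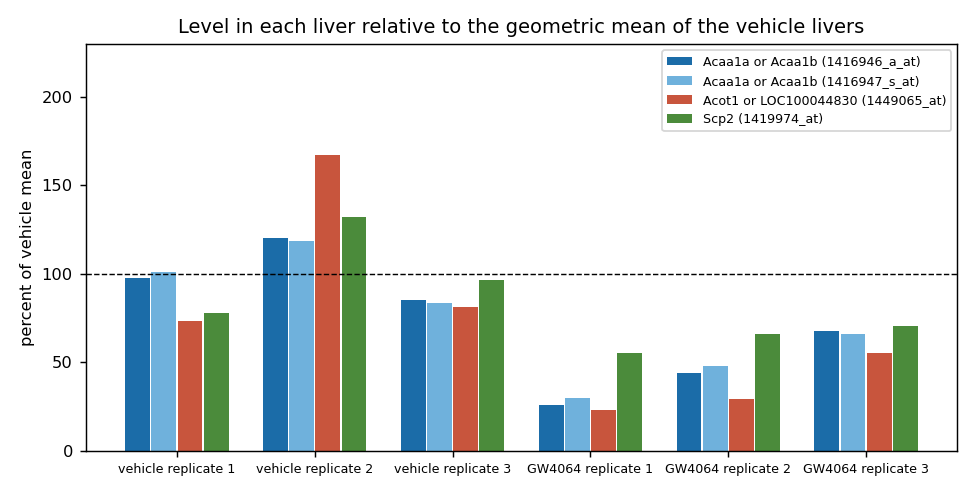
Level of each member in each of the 6 livers (x axis) as a percent of the geometric mean of the vehicle livers (y axis, dashed line at 100). Vehicle replicate 2 has the highest bar of all 4 members, and GW4064 replicate 1 the lowest.

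Variation from mouse to mouse was partly shared between the genes. After group means had been removed, Acot1 correlated over the 6 arrays at r = 0.848 and 0.828 with the thiolase probe sets and at 0.871 with Scp2. Scp2 and the thiolase probe sets were less alike over both groups, at 0.607 and 0.591. Among the 3 treated livers alone they correlated at 0.977 and 0.989, and Acot1 with the thiolase probe sets at 0.954 and 0.933. Among the 3 vehicle livers these values were 0.684 and 0.548 for Scp2, and 0.87 and 0.772 for Acot1. Each r rests on 6 points from 2 groups, or on 3 points within a group, and carries no test. The arrays may have been normalized together, and the same r was not computed over all probe sets. Acot1 and Scp2 also parted in the size of their difference. The log2 gap of Scp2 over Acot1 was 2.05, 1.62 and 2.21 in vehicle livers and 3.23, 3.14 and 2.30 in GW4064 livers, so that Acot1 was lower by a further 0.93 on average. The groups did not overlap in this gap, although GW4064 replicate 3 lay close to vehicle replicate 3. These 2 members had the largest and the smallest difference, and both were selected on this contrast. How often other pairs of probe sets part in this way was not computed, so nothing is read from it. The gap of the thiolase probe sets to Acot1 and to Scp2 overlapped between the groups.

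The differences depended on single livers in size and not in direction. Leaving out each of the 6 livers in turn gave 1.83- to 2.96-fold and 1.77- to 2.63-fold lower levels for the thiolase probe sets, 2.32- to 3.87-fold for Acot1 and 1.37- to 1.78-fold for Scp2. The direction could not have changed, since the groups do not overlap. Values were smallest without GW4064 replicate 1 for the thiolase probe sets, and without vehicle replicate 2 for Acot1 and Scp2. In both of these settings Scp2 fell short of 1.5-fold, at 1.37-fold without vehicle replicate 2 and 1.47-fold without GW4064 replicate 1. The largest values came without GW4064 replicate 3, except for Scp2, which was largest without vehicle replicate 1.

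**Figure D5:**
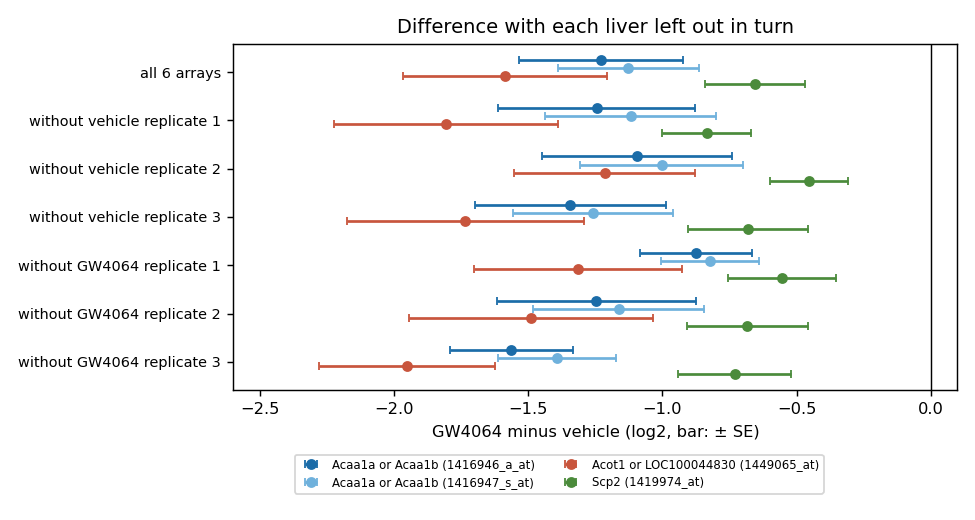
Difference GW4064 minus vehicle (x axis, log2) of each member with all 6 arrays and with each liver left out (rows), with bars for ± SE from limma. Acot1 ranges from -1.22 to -1.95 and Scp2 from -0.45 to -0.83.

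Among the 86 other genes whose symbol stood alone for a probe set in the authors' table, Cyp4a12a was the most like the members over the 6 livers. Likeness was the Pearson correlation with the mean of the 4 standardized member profiles, over 6 arrays, and is a description of genes that were all listed for a difference on these arrays. Cyp4a12a, which encodes a hydroxylase of the omega end of fatty acids, had r = 0.974. Its levels were 11.78, 11.90 and 11.82 in vehicle and 10.94, 11.22 and 11.43 in treated livers, so that the groups differed by -0.64 (SE 0.13). It shared the low value in GW4064 replicate 1 and the high one in vehicle replicate 2, with a far smaller SD among vehicle livers, 0.06. Epb41l2, a gene of a membrane skeleton protein, followed with r = 0.972, Lgals7, which encodes a galectin, with 0.963, Coq8a, which acts in coenzyme Q synthesis, with 0.960, and Bcl2l11, which encodes a pro-apoptotic protein, with 0.956. These 4 differed by -0.70 (SE 0.14), -0.68 (SE 0.17), -0.71 (SE 0.21) and -0.58 (SE 0.16). The probe sets of Epb41l2 and Coq8a carry the suffix _s_at, so they can detect transcripts of several genes. A correlation of at least 0.9 was found for 481 of all 22626 probe sets.

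The other genes of acyl-CoA metabolism could hardly be followed. A set of 10 lists covered peroxisomal and mitochondrial beta-oxidation, thioesterases, acyl-CoA synthetases, ketone body synthesis, PPARA targets, bile acid side-chain shortening, peroxisome biogenesis, fatty acid synthesis and nuclear receptors, with 137 genes in all. Only 3 of them, Scp2, Elovl3 and Nr0b2, had a probe set paired with that gene alone. Peroxisomal beta-oxidation had 22 genes, of which 3 were members (Acaa1a, Acaa1b and Scp2) and 19 are not analysed here. Of the 15 thioesterase genes 14, of the 24 PPARA targets 22 and of the 9 genes of bile acid side-chain shortening and conjugation 8 are not analysed here, the rest being members. All 19 genes of mitochondrial beta-oxidation, 18 of acyl-CoA synthetases and fatty acid uptake, 5 of ketone body synthesis and 19 of peroxisome biogenesis are not analysed here. A gene could be named only where the authors had listed its probe set as changed, so these counts say nothing of the genes left out.

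Elovl3, whose enzyme elongates very long chain fatty acids, the 1 such gene of the 16 in fatty acid synthesis and elongation, was also lower. It was at 12.33, 11.64 and 11.84 in vehicle and at 9.36, 10.19 and 10.83 in treated livers, so that the groups differed by -1.81 (SE 0.34). Its treated livers lay in the same order as those of the members, whereas vehicle replicate 2 was its lowest vehicle liver and not its highest. Nr0b2, an FXR target that encodes a corepressor, was the 1 such gene among 11 nuclear receptor genes. It was at 7.54, 7.74 and 8.02 in vehicle and at 10.58, 9.21 and 8.87 in treated livers, so that the groups differed by 1.79 (SE 0.39). Nr0b2 was highest in GW4064 replicate 1, where the 4 members were lowest. Both genes came from the same listing, and neither passed an adjusted p of 0.05 by limma (0.417 and 0.433). Markers of hepatocytes, Kupffer cells, endothelial cells, stellate cells, cholangiocytes and neutrophils, 36 genes in 6 lists, had 0 paired probe sets, so the cell makeup of the livers was not tested.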

How the data were processed

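Expression was measured in 6 mouse livers, 1 array each, grouped and numbered by the submitters' sample titles, which name no pairing. The deposited values are log2 expression levels per probe set that the authors made with Affymetrix software. The array medians lay close together, at 5.871 to 5.893, which does not by itself show how the arrays were normalized. How probes were summarised is not given in the sources used here. Whereas the labels name the Mouse Gene 1.0 ST array, the deposited identifiers and the table header belong to the Mouse430A_2 design. That table was used only for its gene symbols, identifiers and bands. Its columns of fold and direction were not used. Their small number limits the precision of all values.

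After removal of 64 control probe sets, 22626 were fitted by limma (version 3.58.1, R version 4.3.3), two-sided, with lmFit and eBayes. The model held the group alone, with Benjamini-Hochberg adjustment over all. The procedure was also run on simulated data with the same SD for all probe sets, unlike these data. That run checks the code and not how well the model describes these livers. Dim probe sets were kept. An exact permutation test of 3 against 3 livers cannot go below p = 0.1. Members and lists were chosen with earlier results of these data known. Named are all members, up to 4 genes per list with the smallest unadjusted p, and the 5 genes of the table most like the members. Where a gene had several probe sets, the brightest on average was used. Symbols were updated through RefSeq gene identifiers of GRCm38.p6, which also gave the promoters. These were aligned with Biopython 1.88 (match 1, mismatch -1, gap opening -3 and extension -0.5). Alternatives were the methods' t-test, quantile normalization, median centring, omission of dim probe sets, a trended robust prior, array weights, a replicate block and leaving out each liver.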

Additional observations from a re-analysis of the deposited data

How the results depend on the processing

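All alternatives were set out before they were run, with earlier results of these data known. The differences of the 4 members and their median kept their direction in all 13 alternatives, and each moved by less than its SD pooled over both groups (0.519 and 0.444 for the thiolase probe sets, 0.653 for Acot1 and 0.3 for Scp2). The thiolase values moved by more than the smaller SD of the vehicle livers without GW4064 replicate 1 or 3, and Scp2 by more than that of the treated livers without vehicle replicate 2. Quantile normalization and median centring put the median of the members at -1.16 in both cases, array weights at -1.10, and leaving out 1 liver at -0.85 to -1.48. Without 1 liver the differences were -0.87 to -1.56 and -0.82 to -1.39 for the thiolase probe sets, -1.22 to -1.95 for Acot1 and -0.45 to -0.83 for Scp2. The t-test, the other prior, the replicate block and the omission of dim probe sets leave the differences as they are by construction. Array weights and leaving out 1 liver could not reverse them, since the groups do not overlap. Only quantile normalization and median centring could have changed the direction. An adjusted p under 0.05 was reached by 0 probe sets in each alternative with all 6 arrays, and by 0 to 70 without 1 liver. The count of 70 came without GW4064 replicate 3; the cause was not tested. The 1.5-fold threshold with an unadjusted p under 0.05 was met by 283 probe sets. This became 97 with the methods' t-test, and 158 (GW4064 replicate 1 omitted) to 573 (GW4064 replicate 3 omitted) when 1 liver was left out. Under the replicate block these 2 counts came to 0 and 304. Same-numbered mice shared no large deviation (r = -0.00194, 0.05 and -0.03 over probe sets). With 3 mice per group this does not settle whether mice were paired, and the sample titles do not say.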
